A study of Arabidopsis thaliana with 24 samples.

Results

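The genes examined here are 93 Arabidopsis thaliana genes that carry only a locus identifier as their symbol and whose transcripts were higher at ZT24 than at ZT36 in water-treated leaves. They are measured by 94 probe sets, each counted as a member. They were chosen from 11933 probe sets named by a plain locus identifier, within 22746 tested, because the mean over 6 water arrays at ZT24 was at least 2 log2 units above the mean over 6 water arrays at ZT36. A further 5 locus-named genes that met this threshold were left out of the set by name. The gene tables used here pair these loci with no description, so the members are identified by locus number, in which the first digit is the chromosome, and no role is given for them. The RefSeq table lists all of them as protein-coding except AT3G15310, which it lists as a pseudogene.

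The arrays measured total RNA from true leaves of wild-type plants that were 23 days old, grown with a 12 h day and moved to constant light 24 h before treatment. Plants received 1 mM salicylic acid (SA) or water at ZT24 or ZT36, where ZT counts hours on the zeitgeber clock, and stayed in constant light. Harvest followed treatment by 3 h or 0 h according to the labels, which gives 8 groups of 3 biological replicates and 24 arrays. One wild type and one leaf tissue are shared by every group, so the comparisons hold time, treatment and hours after treatment only.

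In plants, a circadian clock of interlocking transcription loops keeps many leaf transcripts cycling in constant light, some with a peak in the subjective morning and others in the subjective evening. ZT24 is the start of a subjective day and ZT36 the start of a subjective night. SA is an immune hormone that changes the transcription of many leaf genes, in large part through the coactivator NPR1 and TGA transcription factors. The comparisons ask how the transcripts that were high at ZT24 without SA behaved in leaves given SA at either time.

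The deposited values are log2 expression values that had been centred on each probe set's median over the 24 arrays. A value of 1 is therefore 1 log2 unit above that median, and no expression level, detection call or comparison of levels between genes can be made. For the same reason the leaf label could not be checked against the presence or absence of marker transcripts. In these whole leaves, fewer cells of a type and less RNA per cell cannot be told apart. A member is called higher or lower below when limma's adjusted p, over all 22746 probe sets of that contrast, was under 0.05.

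The arrays labelled SA 0 h stood apart from the water 0 h arrays. Across all probe sets, limma called 3688 between SA 0 h and water 0 h at ZT24 and 6603 at ZT36, although both are labelled 0 h. The SD of all values on an array was 0.286 to 0.359 on the SA 0 h arrays, against 0.547 to 0.648 on the SA 3 h arrays and 0.367 to 0.553 on the water arrays. Pearson correlations between arrays of one group ran between 0.618 and 0.939, with the lowest among the SA ZT24 0 h arrays. These are correlations of centred values. A group near the median can correlate less at the same replicate noise, so they do not rank the groups by replicate quality. The labels do not state whether 0 h means just before or just after treatment, or whether these arrays were processed apart. A rise or fall between 3 h and 0 h below is therefore a difference between arrays so labelled. Differences within the SA 3 h arrays use the values of no SA 0 h array and are given first, although the SE and p come from a fit to all 24 arrays.

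In the water arrays, which chose the members, the ZT24 minus ZT36 difference ran between 2.00 and 5.30 log2 units with a median of 2.49. These values are a description and carry no test, and nothing is read from the 24.1% of all probe sets that limma called higher and the 26.7% it called lower in that contrast. Just inside the threshold lay AT3G16175 at 2.01, AT3G60440 at 2.00 and AT1G43910 at 2.00. Just outside it lay AT1G32220 at 1.99, AT5G17600 at 1.99 and AT4G35320 at 1.98. There were 28, 11, 17, 8 and 30 members on chromosomes 1 to 5, and no pair of members were neighbouring protein-coding genes. In that order these are 29.79%, 11.7%, 18.09%, 8.51% and 31.91% of the members. Of all locus-named probe sets, 26%, 16.49%, 20.47%, 14.45% and 22.58% lay there. The difference in shares was not tested.

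The pseudogene AT3G15310 had the widest water difference, 5.30. It stood at 3.00, 3.13 and 3.00 in the water ZT24 3 h arrays and at 3.19, 2.89 and 3.15 in the water ZT24 0 h arrays, against -2.07, -2.49 and -1.93 in the water ZT36 3 h arrays and -1.87, -2.54 and -2.56 in the water ZT36 0 h arrays. All 6 ZT24 values lay far above all 6 ZT36 values. AT2G15020 followed with a water difference of 5.06 and AT5G42760 with 5.02. AT5G54130 is covered by 2 probe sets, which had water differences of 4.86 and 4.1. AT1G64500 had a water difference of 4.01.

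Between the water arrays taken 3 h and 0 h after treatment, a comparison the choice of members did not use, no member was called. At ZT24, limma called 0% of all probe sets higher and 0% lower, and 5 members had an unadjusted p under 0.05, as did 3.2% of all probe sets. At ZT36 it called 0.00879% higher and 0% lower, and 19 members had an unadjusted p under 0.05, as did 13.4% of all probe sets. The median member difference for 3 h minus 0 h in water was -0.05 at ZT24 and 0.06 at ZT36, against -0.00 and -0.01 over all tested probe sets.

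**Figure D1:**
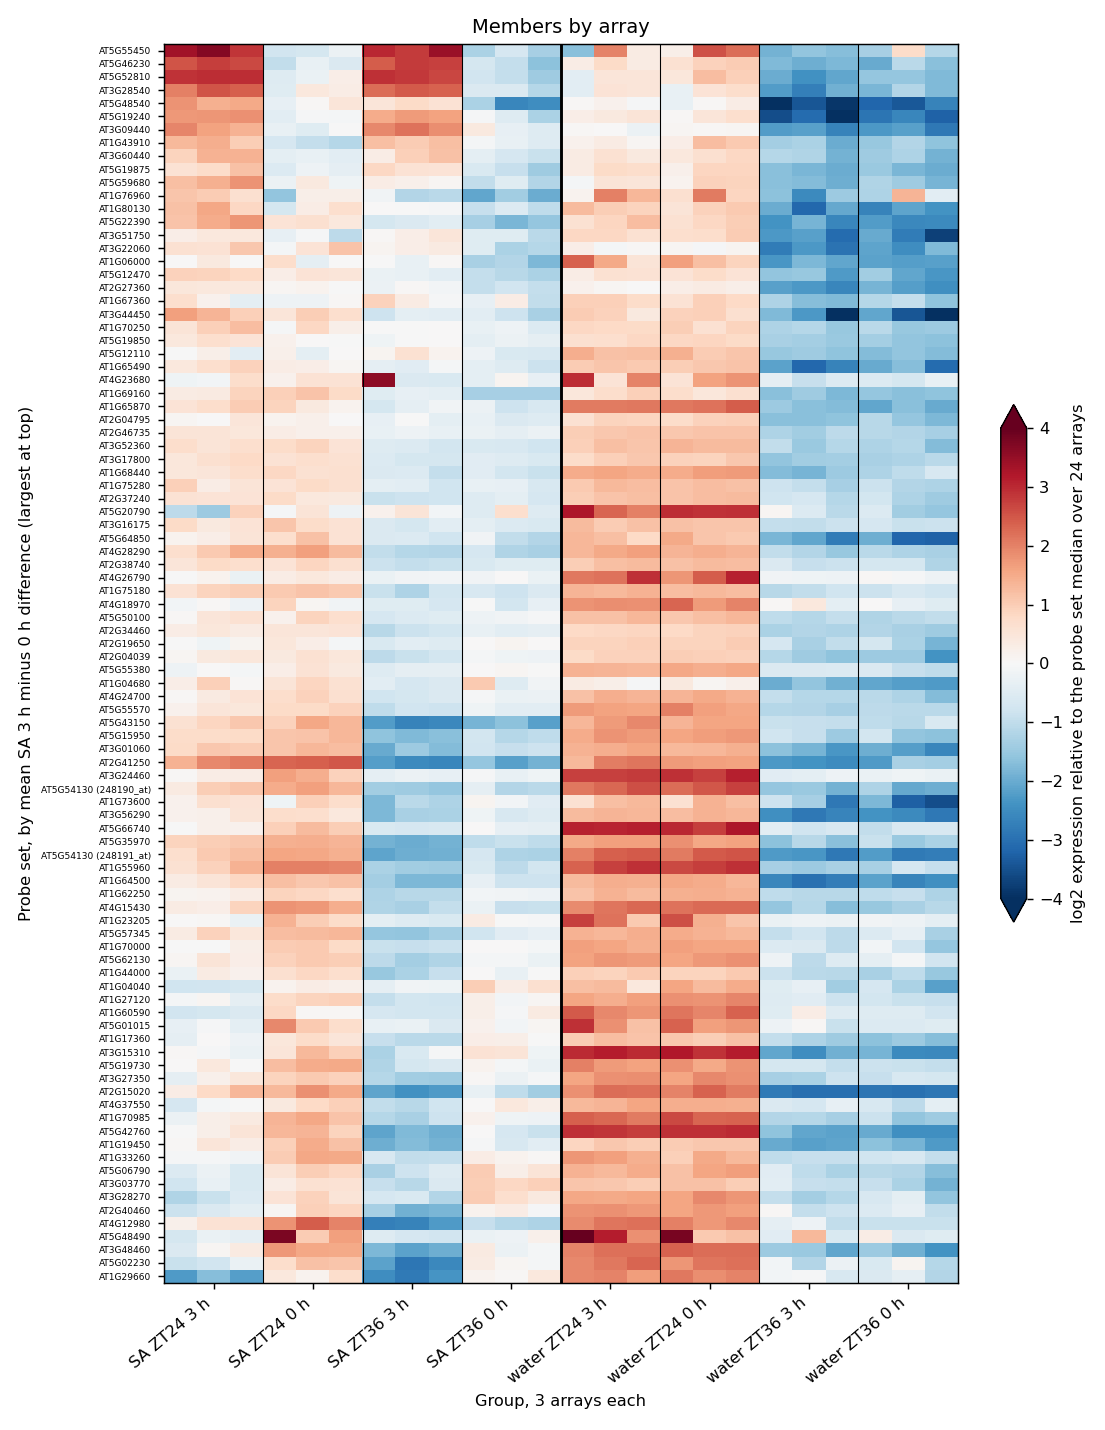
Each row is 1 of the 94 probe sets and each column 1 of the 24 arrays, and colour gives the log2 value relative to the probe set's own median. Rows run from the largest to the smallest mean SA 3 h minus 0 h difference. The water ZT24 columns are mostly red and the water ZT36 columns mostly blue, since the rows were chosen by the means of these arrays. The top rows are deepest red in the SA 3 h columns at both times, and the bottom rows are bluer in SA 3 h than in SA 0 h columns.

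Most members were also higher at ZT24 in leaves given SA. In the SA 3 h arrays, 65 of 94 members were called higher at ZT24 than at ZT36 and none lower, where 11.6% of all probe sets were called higher and 16.3% lower. With the limma test and no adjustment, 68 members had a p under 0.05, as did 37.6% of all probe sets. A fit to the SA 3 h arrays alone called 68 members higher and 1 lower, with the share of all probe sets not computed. The median member difference was 0.97 log2 units, against 0.01 over all tested probe sets, and members ran between -0.72 and 4.25. In the SA 0 h arrays, 69 members were called higher and 1 lower, against a background of 9.82% higher and 14.6% lower. The median member difference there was 0.96, against 0.02 over all tested probe sets.

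A total of 61 members were called higher at ZT24 in both SA 3 h and SA 0 h arrays. A further 4 were called in SA 3 h arrays alone and 8 were called higher in SA 0 h arrays alone, and 20 were called in neither. The share of all probe sets called higher in both was not computed. The difference between the SA 3 h and SA 0 h effects of time is the same quantity as the difference of the SA changes described further on, where 2 members passed the test. The SA 3 h and SA 0 h comparisons share no array with each other or with the water arrays that chose the members.

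**Figure D2:**
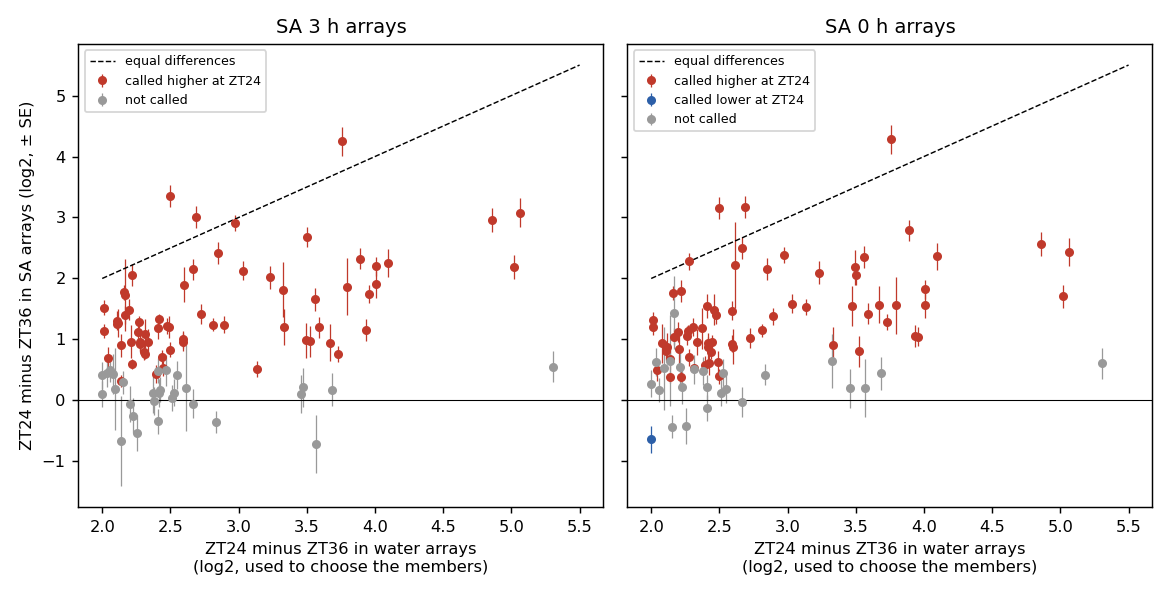
The horizontal axis is the ZT24 minus ZT36 difference in the water arrays, which chose the members, and the vertical axis is the same difference in SA 3 h arrays (left) and SA 0 h arrays (right), in log2 units with bars of 1 SE. Red points were called higher at ZT24, the blue point lower, and grey points were not called. Most points lie above 0 and below the dashed line of equal differences: 91 of 94 below it in SA 3 h and 90 in SA 0 h.

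The ZT24 minus ZT36 difference was smaller in the SA arrays than in the water arrays for nearly every member. It was smaller in SA 3 h than in water for 91 of 94 members, with a median of 37.9% of the water difference. It was smaller in SA 0 h than in water for 90, with a median of 38.9%. Since the water value had to be at least 2 for a probe set to be a member, this is a description with no test. A smaller difference in SA arrays was not particular to the members. The 92 locus-named probe sets lower at ZT24 in water by the same threshold had a median difference of -2.60 in water. Their median was -0.80 in SA 3 h arrays and -0.92 in SA 0 h arrays. Among the members, a difference of at least 2 was found for 16 in SA 3 h arrays and for 16 in SA 0 h arrays.

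AT2G41250 had the largest difference between times in the SA arrays. It stood at 1.38, 1.91 and 2.09 in SA ZT24 3 h arrays, against -2.22, -2.54 and -2.61 in SA ZT36 3 h arrays. Its SA ZT24 0 h arrays read 2.34, 2.40 and 2.48, against -1.55, -2.18 and -1.89 in SA ZT36 0 h arrays. The ZT24 arrays were above the ZT36 arrays without overlap at both hours. The difference was 4.25 ± 0.23 (SE, n = 3 each, adjusted p = 2.4e-11 by limma) at 3 h and 4.28 ± 0.23 (adjusted p = 2.2e-11) at 0 h, and in water it was 3.76.

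AT5G43150 and AT4G12980 also kept a wide gap. AT5G43150 stood at 0.61, 0.87 and 1.07 in SA ZT24 3 h arrays, against -2.24, -2.67 and -2.59 in SA ZT36 3 h arrays. AT4G12980 stood at 0.19, 0.59 and 0.58 in SA ZT24 3 h arrays, against -2.75, -2.66 and -2.27 in SA ZT36 3 h arrays. For both, every ZT24 array was above every ZT36 array. The limma difference at 3 h was 3.35 ± 0.18 for AT5G43150 (adjusted p = 2.1e-11) and 3.01 ± 0.18 for AT4G12980 (adjusted p = 1.3e-10). At 0 h it was 3.16 ± 0.18 for AT5G43150 and 3.18 ± 0.18 for AT4G12980. AT2G41250, AT5G43150 and AT4G12980 were the members whose SA difference exceeded the water difference at both hours.

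AT2G15020 had the second widest gap in water and a wide one with SA. Its values were 0.30, 0.80 and 1.34 in SA ZT24 3 h arrays, against -2.12, -2.43 and -2.25 in SA ZT36 3 h arrays, a limma difference of 3.08 ± 0.23 (SE, n = 3 each, adjusted p = 3.1e-09). In SA 0 h arrays it was 2.44 ± 0.23 (adjusted p = 1.1e-07). AT1G55960 differed by 2.33 ± 0.17 at 3 h (adjusted p = 2.7e-09) and by 2.79 ± 0.17 at 0 h (adjusted p = 1.9e-10). Both probe sets of AT5G54130 gave a difference in the same direction, 2.96 ± 0.19 and 2.25 ± 0.23 at 3 h, and 2.56 ± 0.19 and 2.36 ± 0.23 at 0 h in the same order.

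AT3G15310, with the widest gap in water, did not pass the test between times in SA arrays. It read 0.05, -0.05 and -0.27 in SA ZT24 3 h arrays, against -1.26, -0.62 and -0.06 in SA ZT36 3 h arrays, with 1 ZT36 array level with the ZT24 arrays. The SA 0 h arrays read 0.50, 1.29 and 0.95 at ZT24, against 0.56, 0.52 and -0.17 at ZT36, and overlapped. The limma difference was 0.56 ± 0.26 at 3 h (adjusted p = 0.12) and 0.61 ± 0.26 at 0 h (adjusted p = 0.098). Its SA values at both times lay between its water ZT24 and water ZT36 values.

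AT1G43910, at the edge of the choice in water, was the one member called lower at ZT24 in SA 0 h arrays. It read -0.68, -0.94 and -1.15 in SA ZT24 0 h arrays, against -0.07, -0.28 and -0.50 in SA ZT36 0 h arrays, without overlap. The limma difference was -0.64 ± 0.22 (SE, n = 3 each, adjusted p = 0.034), and the call was lost under 5 alternatives, among them leaving out SA ZT36 0 h replicates 1 or 2 or SA ZT24 0 h replicates 2 or 3, where the adjusted p was 0.073 to 0.13. At 3 h the difference was 0.11 ± 0.22 (adjusted p = 0.76).

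Between 3 h and 0 h in the SA arrays, more members fell than rose on the deposited values, at ZT36 not so after quantile normalization. At ZT24, 18 members rose and 42 fell, where 14.3% of all probe sets were called higher and 17.4% lower. At ZT36, 21 members rose and 44 fell, where 13.3% were called higher and 16.4% lower. The median member change was -0.38 at ZT24 and -0.43 at ZT36, against -0.03 and -0.01 over all tested probe sets. An excess of falls was not particular to the members. Of the 92 locus-named probe sets lower at ZT24 in water by the same threshold, 13 rose and 27 fell at ZT24 (median -0.17). At ZT36, 9 of them rose and 32 fell (median -0.28). After quantile normalization the median member change was -0.72 at ZT24 and 0.08 at ZT36, so that its direction turned at ZT36. Over all tested probe sets the medians were then -0.01 and 0.01. That step was applied to the centred values and gives every array the same distribution. By construction it widens the SA 0 h values, whose SD was lowest, relative to the SA 3 h values. With quantile normalization the ZT36 calls became 31 higher and 28 lower, and 52.5% of member calls were rises, against 32.3% on the values as deposited. The share of all probe sets called after that step was not computed.

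The changes at the 2 times, which share no array, are set side by side in the scatter of members. A total of 16 members rose at both times, 34 fell at both, 1 fell at ZT24 and rose at ZT36, 23 were called at 1 time and 20 at neither. The shares of all probe sets with these joint calls were not computed. Over the 94 members the changes had the same sign at both times in 86, and Pearson's r across members was 0.90, given as a description. These counts rest on the SA 0 h arrays, whose timing and processing are not given in the labels as described above.

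**Figure D3:**
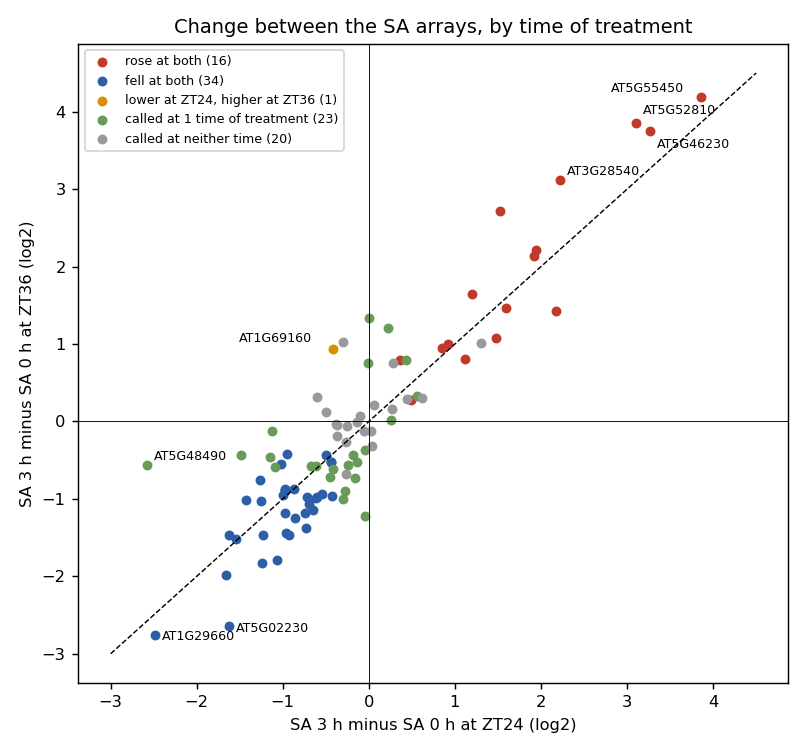
The horizontal axis is the SA 3 h minus 0 h change at ZT24 and the vertical axis the same change at ZT36, in log2 units, with 1 point for each of 94 probe sets and a dashed line of equal changes. Colours give the calls at the 2 times. The 16 members that rose at both times lie at the upper right and the 34 that fell at both at the lower left, and AT1G69160 lies at the upper left.

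The largest rise was that of AT5G55450. It read 3.35, 3.66 and 2.85 in SA ZT24 3 h arrays, against -0.76, -0.72 and -0.23 in SA ZT24 0 h arrays. At ZT36 it read 3.01, 2.80 and 3.47 at 3 h, against -1.28, -0.68 and -1.32 at 0 h. The 3 h arrays stood above the 0 h arrays without overlap at both times. The limma change was 3.86 ± 0.67 (14.5-fold, n = 3 each, adjusted p = 1.1e-04) at ZT24 and 4.19 ± 0.67 (18.2-fold, adjusted p = 5e-05) at ZT36. Its water arrays were widely spread, with -1.68, 2.00 and 0.33 in the water ZT24 3 h group. With no test, its mean SA minus water difference at ZT24 was -2.24 at 0 h and 3.07 at 3 h. At ZT36 that difference was -0.51 at 0 h and 4.81 at 3 h. The change between the SA hours thus starts from 0 h arrays below water.

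AT5G46230 and AT5G52810 rose almost as far with tighter replicates. AT5G46230 read 2.52, 2.76 and 2.65 in SA ZT24 3 h arrays, against -0.97, -0.31 and -0.58 in SA ZT24 0 h arrays, a change of 3.27 ± 0.23 (9.62-fold, adjusted p = 8.5e-10). AT5G52810 read 2.89, 2.96 and 2.95 in SA ZT24 3 h arrays, against -0.52, -0.25 and 0.25 in SA ZT24 0 h arrays, a change of 3.11 ± 0.23 (8.61-fold, adjusted p = 2.1e-09). No 3 h array of either reached down to its 0 h arrays. At ZT36 the limma changes were 3.75 ± 0.23 for AT5G46230 and 3.86 ± 0.23 for AT5G52810, with adjusted p of 1.7e-10 and 1.4e-10. With no test, SA minus water for AT5G46230 was -1.47 at 0 h and 2.18 at 3 h at ZT24, and 0.50 and 4.49 at ZT36. For AT5G52810 the same differences were -1.05 and 2.75 at ZT24, and 0.56 and 4.97 at ZT36.

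In the SA 3 h arrays these transcripts stood near one value whatever the time of treatment. AT5G52810 read 2.91, 2.83 and 2.68 in SA ZT36 3 h arrays, next to the 2.89 to 2.96 at ZT24 given above. Its ZT24 minus ZT36 difference at 3 h was 0.12 ± 0.23 (adjusted p = 0.75), and that of AT5G46230 was -0.00 ± 0.23 (adjusted p = 0.99). A p that misses the threshold does not show equal values. The limma test found AT5G52810 higher at ZT24 in SA 0 h arrays by 0.88 ± 0.23 (adjusted p = 0.0085), a call lost under 3 alternatives, among them without replicate 3 of SA ZT24 0 h or of SA ZT36 0 h.

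AT3G28540 and AT1G43910 rose at both times as well. AT3G28540 read 2.01, 2.50 and 2.38 in SA ZT24 3 h arrays, against -0.47, 0.42 and 0.29 in SA ZT24 0 h arrays. Its limma change was 2.22 ± 0.30 at ZT24 (adjusted p = 4.7e-06) and 3.12 ± 0.30 at ZT36 (adjusted p = 6.3e-08). AT1G43910 changed by 2.18 ± 0.22 at ZT24 (adjusted p = 8.9e-08) and by 1.43 ± 0.22 at ZT36 (adjusted p = 2.3e-05). With no test, SA minus water for AT1G43910 at ZT24 was -1.78 at 0 h and 1.07 at 3 h, and at ZT36 1.14 and 2.68. For AT3G28540 the same differences were -0.23 and 2.09 at ZT24, and 0.83 and 4.64 at ZT36. Over the 16 members that rose at both times, the changes ran between 0.36 and 3.86 at ZT24 and between 0.28 and 4.19 at ZT36.

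The members that rose at both times had a small difference between times once 3 h had passed. Their median ZT24 minus ZT36 difference in SA 3 h arrays was 0.18, with 6 of 16 called higher, and in SA 0 h arrays 0.57, with 9 of 16 called. For the 34 that fell at both times the medians were 1.15 and 0.99, with 27 and 26 called. For the 20 that were called at neither time they were 1.13 and 1.06, with 15 and 13 called. The same SA arrays enter the sorting and these medians, so they are given as values with no test.

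AT1G29660 had the largest fall at ZT36. It read -2.28, -1.71 and -2.21 in SA ZT24 3 h arrays, against 0.41, 0.13 and 0.71 in SA ZT24 0 h arrays. At ZT36 it read -2.48, -2.82 and -2.35 at 3 h, against 0.13, 0.06 and 0.43 at 0 h. The 3 h arrays lay below the 0 h arrays without overlap at both times, and below all 12 water arrays of this transcript, whose lowest value was -1.18. The limma change was -2.48 ± 0.21 at ZT24 (adjusted p = 8.5e-09) and -2.76 ± 0.21 at ZT36 (adjusted p = 2.6e-09). Between ZT24 and ZT36 it differed by 0.49 ± 0.21 in SA 3 h arrays and by 0.21 ± 0.21 in SA 0 h arrays, neither called.

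AT5G02230 and AT3G48460 fell and still differed between the times. AT5G02230 read -0.88, -0.78 and -0.26 in SA ZT24 3 h arrays, against 0.71, 1.16 and 1.10 in SA ZT24 0 h arrays, a change of -1.63 ± 0.29 (adjusted p = 1.2e-04). AT3G48460 read -0.59, 0.07 and 0.35 in SA ZT24 3 h arrays, against 1.74, 1.55 and 1.5 in SA ZT24 0 h arrays, a change of -1.66 ± 0.22 (adjusted p = 5.4e-06). In both, all 3 h arrays were below all 0 h arrays. At ZT36 the limma change was -2.64 ± 0.29 for AT5G02230 (adjusted p = 3.4e-07) and -1.99 ± 0.22 for AT3G48460 (adjusted p = 5.9e-07). Beside water, with no test, the 2 differed at ZT36. AT3G48460 had SA minus water differences of 1.95 at 0 h and -0.28 at 3 h, where its SA and water arrays overlapped. For AT5G02230 they were 0.66 and -2.04. At ZT24 and 3 h, SA minus water was -2.19 for AT3G48460 and -2.75 for AT5G02230. AT5G02230 and AT3G48460 were both higher at ZT24 than at ZT36 in SA 3 h arrays, each by 1.90 (adjusted p = 3.5e-05 and 1.8e-06).

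AT2G40460 fell by 1.24 log2 units at ZT24 (SE 0.24, adjusted p = 2.9e-04) and by 1.83 at ZT36 (SE 0.24, adjusted p = 3.9e-06). AT4G12980, described above for its gap between times, changed by -1.62 ± 0.18 at ZT24 (adjusted p = 4.6e-07) and by -1.46 ± 0.18 at ZT36 (adjusted p = 2.2e-06). The difference of its 2 changes was -0.16 ± 0.26 (adjusted p = 0.91). Over the 34 members that fell at both times, the changes ran between -2.48 and -0.43 at ZT24 and between -2.76 and -0.42 at ZT36.

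The call of AT5G48490 at ZT24 depended on 1 array. It had the largest fall at ZT24, -2.58 ± 0.70 (limma adjusted p = 0.0067), with 3 h arrays at -0.72, -0.27 and -0.34, against 3.76, 1.02 and 1.63 in the 0 h arrays. The first 0 h array stood far above the other two, and without it the change was -1.77 with an adjusted p of 0.064. The difference between times in SA 0 h arrays was 2.22 ± 0.70 (adjusted p = 0.025) and without the same array 1.41 (adjusted p = 0.18). That call was also lost without replicate 1 or 2 of SA ZT36 0 h (adjusted p = 0.069 and 0.068). At ZT36 the change was -0.56 ± 0.70 (adjusted p = 0.65).

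For 2 members the SA change differed between the times of treatment by the test of the difference itself. In both, the 3 h minus 0 h change was lower at ZT24 than at ZT36. Across all probe sets, 0.404% were called higher and 0.193% lower, and 26 members had an unadjusted p under 0.05, as did 9.91% of all probe sets. After quantile normalization, 1 member was called higher and 33 lower, and the median member difference was -0.65, against 0.00 as deposited. The shares of all probe sets given here are for the deposited values. None was computed after quantile normalization, so its member calls have no background.

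AT1G69160 read 0.34, 0.35 and 0.90 in SA ZT24 3 h arrays, against 0.94, 1.13 and 0.77 in SA ZT24 0 h arrays, which overlapped. At ZT36 it read -0.49, -0.34 and -0.38 at 3 h, against -1.33, -1.32 and -1.34 at 0 h, without overlap. The change was -0.42 ± 0.14 at ZT24 (adjusted p = 0.026), a call lost under 7 alternatives, among them without replicate 1 or 2 of either ZT24 group, and 0.93 ± 0.14 at ZT36 (adjusted p = 2.3e-05). The change at ZT24 minus the change at ZT36 was -1.35 ± 0.20 (limma adjusted p = 0.0029). It remained higher at ZT24 at both hours, by 0.93 at 3 h and by 2.28 at 0 h.

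AT3G24460 read 0.06, 0.31 and 0.29 in SA ZT24 3 h arrays, against 1.64, 1.46 and 0.93 in SA ZT24 0 h arrays, without overlap. At ZT36 it read -0.36, -0.22 and -0.32 at 3 h, against -0.06, -0.30 and -0.18 at 0 h, which overlapped. The change was -1.12 ± 0.13 at ZT24 (adjusted p = 8.5e-07) and -0.12 ± 0.13 at ZT36 (adjusted p = 0.60). The difference of the 2 changes was -1.0 ± 0.19 (limma adjusted p = 0.017), and the call was lost under 4 alternatives, including without replicate 2 of SA ZT36 3 h or of SA ZT36 0 h (adjusted p = 0.051 in each).

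**Figure D4:**
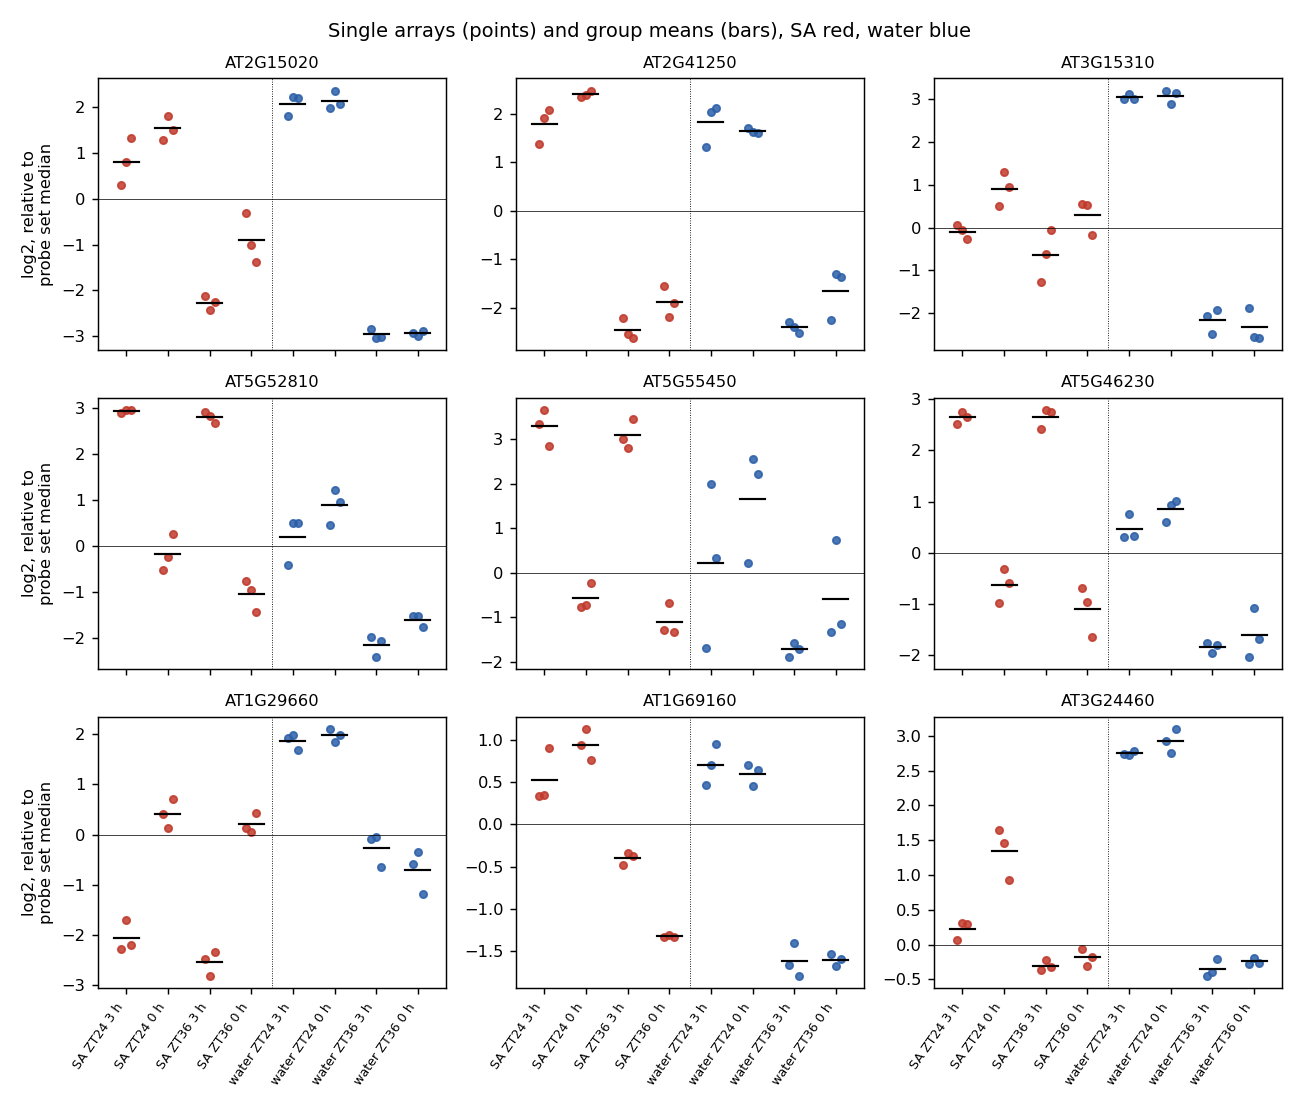
Each panel shows 1 member, with single arrays as points, group means as bars and SA groups in red left of the water groups in blue, on a log2 axis relative to the probe set's median. AT2G15020 and AT2G41250 stay apart between ZT24 and ZT36 in every pair of groups. AT3G15310 is wide apart in water, and its SA arrays of the 2 times overlap at each hour. AT5G52810, AT5G55450 and AT5G46230 are highest in SA 3 h arrays at both times, and AT1G29660 is lowest there. AT1G69160 and AT3G24460 change differently between the times.

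The SA arrays can also be set beside the water arrays of the same time and hour, as values only, since the water arrays chose the members. At 0 h, SA was below water for 84 of 94 members at ZT24 (median difference -0.69) and above water for 87 at ZT36 (median 0.89). At 3 h, SA was below water for 75 at ZT24 (median -0.87) and above water for 66 at ZT36 (median 0.38). Of all 22746 probe sets, 11929 were below water at ZT24 and 10030 above it at ZT36 at 0 h. At 3 h these were 12537 and 10413. The 92 locus-named probe sets lower at ZT24 in water went the other way. At 0 h, 74 of them were above water at ZT24 and 87 below it at ZT36, and at 3 h 56 and 87. The members that rose at both times had median SA minus water differences at 3 h of 1.12 at ZT24 and 2.73 at ZT36. The members that fell at both times had medians of -1.65 at ZT24 and -0.02 at ZT36.

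The highest group mean of a member lay in a water ZT24 group for 72 members, in the SA ZT24 3 h group for 15, in the SA ZT24 0 h group for 4 and in the SA ZT36 3 h group for 3. The lowest lay in the water ZT36 3 h group for 33 members, in the water ZT36 0 h group for 40 and in the SA ZT36 3 h group for 21. The choice of members by the water arrays largely fixes these counts, which are a description only.

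Named genes of the clock and of SA signalling give a comparison from lists written from textbook knowledge. Of 21 clock and light genes, 4 had a named probe set. In SA 3 h arrays HYH, a light-response transcription factor, was higher at ZT24 by 0.73 ± 0.16 (adjusted p = 0.0015). GI, an evening clock gene, was lower at ZT24 by limma, with a difference of -0.67 ± 0.20 (adjusted p = 0.017). COR27, an evening regulator of clock and cold genes, differed by -3.57 ± 0.22 (adjusted p = 2e-10), and AT4G33980 by -3.88 ± 0.12 (adjusted p = 2e-15). In SA 0 h arrays 1 of the 4 was called higher, 2 lower and GI not called (-0.41, adjusted p = 0.16). All 4 differed more in the water arrays, by 4.36 for HYH, -4.14 for GI, -5.99 for COR27 and -5.93 for AT4G33980.

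Of 10 genes listed for SA, 3 had a named probe set, and all 3 were called higher at 3 h than at 0 h at both times of treatment. A listed gene without a named probe set is not thereby shown to be absent from the array. UGT76B1, a glycosyltransferase that acts on SA and isoleucic acid, changed by 7.75 ± 0.13 at ZT24 and by 8.52 ± 0.13 at ZT36. GRX480, a glutaredoxin that binds TGA factors, changed by 3.77 at ZT24 and 4.63 at ZT36, and WRKY53, a transcription factor of senescence and defence, by 2.98 and 2.42. Of the 4 clock and light genes, 1 was called higher and none lower between the SA hours at ZT24, and at ZT36 1 was higher and 1 lower. Of 5 leaf markers listed, 3 had a named probe set, and all 3 were called higher at ZT24 in SA 3 h arrays. LHCB4.2 differed by 1.66, LHCB4.1 by 0.31 and RCA by 0.22. In SA 0 h arrays LHCB4.2 was called higher (1.17). LHCB4.1 (0.16, limma adjusted p = 0.16) and RCA (0.14, limma adjusted p = 0.21) were not called there. In the water arrays LHCB4.2 differed by 0.51, LHCB4.1 by -0.02 and RCA by 0.49. Of 2 guard cell markers, FMA had a named probe set. It differed by -0.29 in SA 3 h arrays (adjusted p = 0.065) and by -0.38 in SA 0 h arrays (adjusted p = 0.018). No root or pollen marker of the list had a named probe set here. The part of these markers in the members' differences was not tested.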

How the data were processed

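The deposited values are log2 expression values from 24 Affymetrix arrays, 1 per sample, made with RMA per the submitters' processing notes, which give no version. They had been centred on each probe set's median over the arrays (largest absolute median 5e-07). The log base is taken from RMA. The 64 control probe sets were left out and 22746 tested. The number of arrays limits the precision, and the probe sets' signal over background is unknown here. Array medians lay between -0.0354 and 0.0334. Symbols came from the platform's gene table, where 503 probe sets list several genes and 13513 list 1, of which 13436 were matched by gene identifier to RefSeq's TAIR10.1 table, used for names, biotypes and neighbours only.

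Groups were taken from the labels. A mean per group was fitted to all 24 arrays with limma 3.58.1 in R 4.3.3, with 2-sided moderated tests (16 residual and 4.03 prior degrees of freedom) adjusted by Benjamini-Hochberg within each contrast at 0.05. The script was checked on simulated data. Figures were drawn with matplotlib 3.10.9. Named members were the 6 probe sets with the largest difference in the choosing contrast, the 3 members just inside and 3 probe sets just outside the threshold, the 4 largest non-overlapping rises and falls in each SA contrast, those called in the difference of changes, and any called in the opposite direction between times. Members and lists were chosen with earlier results of these data known. Alternatives were quantile normalization of the centred values, only the arrays compared, a trended and robust prior and array weights. Others were a fold minimum, a block on runs of title numbers and each array left out. Planned function groups and a promoter motif search were not run, because the reference tables hold no descriptions or sequences.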

Additional observations from a re-analysis of the deposited data

Results flagged for a closer look

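The change between 3 h and 0 h in SA arrays differed between the times of treatment, by the test of the difference itself, for 2 members. AT1G69160 changed by -0.42 at ZT24 and by 0.93 at ZT36, a difference of -1.35 log2 units (SE 0.20, limma adjusted p = 0.0029). AT3G24460 changed by -1.12 at ZT24 and by -0.12 at ZT36, a difference of -1.0 log2 units (SE 0.19, limma adjusted p = 0.017).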

How the results depend on the processing

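Of 924 recomputed results of the named members, 844 kept their direction and their side of the threshold, 78 lost the call and 2 reversed. With quantile normalization, AT5G43150 changed between the SA hours at ZT36 by 0.27 (adjusted p = 0.37) and AT1G55960 by 0.15 (adjusted p = 0.67), both lower on the deposited values. The share of all probe sets called was computed only for the main fit to the deposited values. No member count under an alternative, quantile normalization included, therefore has a background. Quantile normalization also gave 28 members lower between the SA hours at ZT36 and 2 lower at ZT24 in SA 0 h arrays. In the difference of changes it gave 1 higher and 33 lower. The cause was not tested. With a fold minimum of 1 log2 unit, 45 members were higher and 0 lower at ZT24 in SA 0 h arrays, 18 fell at ZT24, and 13 rose and 20 fell at ZT36, by construction fewer. With only the arrays compared, 2 members were lower at ZT24 in SA 0 h arrays, 1 was lower in SA 3 h arrays, and 1 was called in the difference of changes, as 1 was with a trended and robust prior. With array weights, 4 members rose and 5 fell between the water hours at ZT36. Leaving out 1 array gave 57 to 68 members higher and 0 to 1 lower at ZT24 in SA 0 h arrays, 61 to 64 higher and 0 to 1 lower in SA 3 h arrays, and 1 to 3 lower in the difference of changes. It gave 14 to 17 rises and 35 to 45 falls between the SA hours at ZT24, and 18 to 22 and 36 to 43 at ZT36. In water at ZT36 it gave 0 to 4 rises and 0 to 3 falls, the 4 and 3 without replicate 1 of water ZT36 0 h. The labels give no replicate numbers beyond title numbers, whose 3 runs did not pair the samples throughout: same-run correlations averaged between -0.157 and 0.352 over 28 pairs of groups, and in 3 of these every one was over 0.1. One of the 3 is water ZT24 3 h with water ZT24 0 h, where the blocked fit called 0 members in either direction, as did a blocked fit of those arrays alone, added after the data were seen. With the runs as a block, 70 members were higher and 1 lower at ZT24 in SA 0 h arrays and 65 and 0 in SA 3 h arrays, 18 rose and 42 fell at ZT24, 21 rose and 44 fell at ZT36, and 0 and 2 were called in the difference of changes. Centred values hold no level, so a filter on dim probe sets was not run.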
